A study of Rattus norvegicus with 9 samples.

Results

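The immediate early transcription factors described here are Fos, Jun, Egr1 and Nr4a1, 4 of the 32883 genes in a count table of cultured rat renal artery endothelial cells. They were chosen by a list of Ensembl identifiers: ENSRNOG00000008015 (Fos), ENSRNOG00000026293 (Jun), ENSRNOG00000019422 (Egr1) and ENSRNOG00000007607 (Nr4a1). All 4 passed the filter on low counts, which left 12943 genes for testing. The names come with that list, since the table itself gives identifiers only.

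Immediate early genes are switched on within minutes of a stimulus from transcription factors that the cell already holds, with no need for new protein. Growth factors, stress and hormones such as angiotensin II reach them through MAP kinases, serum response factor with its ternary complex partners, and CREB, and the mRNAs are short-lived. Fos and Jun form the dimer AP-1, Egr1 is a zinc finger protein known in endothelium for its response to shear and injury, and Nr4a1 (Nur77) is an orphan nuclear receptor.

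Total RNA was sequenced in 9 libraries, 3 in each of 3 groups. The treated cells received calycosin, an isoflavone, with tanshinone IIA, a diterpene quinone of danshen root. The Model cells carry only that word as a label, and the series title ties the model to angiotensin II. The Normal cells are labelled Normal. All groups were endothelial cells of the rat renal artery, grown in DMEM with serum. The labels give no dose or time, and they do not say whether the Model condition was applied to the treated cells as well. Separate cultures are not stated for the replicates, so every p-value here reflects differences among libraries that may be technical. In units of 1e6, the gene counts summed to 18.3, 7.98 and 8.15 in treated libraries 1 to 3, against 13.2 to 17.2 in Model and 12.3 to 13.6 in Normal libraries. The endothelial and other cell type markers, listed by symbol, could not be matched to identifiers, so the labelled cell type was not checked.

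Of the 4 genes, upstream sequence was at hand for Egr1 and Nr4a1 only, and both are shown for that reason. None was at hand for Fos and Jun. Whether the sequence bears on the level of either gene was not tested. Each line gives the 250 bases before the RefSeq transcription start, on the plus strand of GRCr8, a later assembly than the mRatBN7.2 named for the counts. Capitals mark CArG boxes and the runs CACGTCA and TACGTCA in Egr1, and the run TGCGTCA in Nr4a1.
Egr1, chr18:26736828-26737077: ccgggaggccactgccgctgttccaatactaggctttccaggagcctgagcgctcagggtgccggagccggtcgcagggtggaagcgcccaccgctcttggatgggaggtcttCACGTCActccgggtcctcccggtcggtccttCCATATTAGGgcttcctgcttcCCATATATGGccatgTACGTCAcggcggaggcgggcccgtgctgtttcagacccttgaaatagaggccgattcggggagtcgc
Nr4a1, chr7:134259888-134260137: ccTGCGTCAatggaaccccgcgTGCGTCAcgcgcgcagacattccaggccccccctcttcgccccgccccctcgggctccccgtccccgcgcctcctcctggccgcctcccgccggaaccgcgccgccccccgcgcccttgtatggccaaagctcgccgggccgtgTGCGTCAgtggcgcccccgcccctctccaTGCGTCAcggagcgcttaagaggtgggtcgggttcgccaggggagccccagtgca

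The CArG box, the element bound by serum response factor, was counted only in the exact form CCWWWWWWGG, where W is A or T. The Egr1 window held 2 of them, CCATATTAGG from 105 to 96 bases and CCATATATGG from 83 to 74 bases before the start. A CArG box was found in 1.50% of the 33469 upstream windows of the same length, and 2 or more in 0.0209%. The runs CACGTCA and TACGTCA, which share CGTCA with the cAMP response element TGACGTCA, each occurred once, and occur in 1.54% and 1.60% of windows. The Nr4a1 window held no CArG box of the exact form, but did hold CCTTGTATGG, which differs from it by a single base. How often such near forms occur was not counted. The Nr4a1 window also held 4 copies of TGCGTCA, a run described as AP-1-like, which occurs in 1.66% of windows and at least 2 times in 0.0538%. It also held 3 copies of GGGCGG, the GC box, all on the minus strand, a run found in 30.5% of windows and at least 2 times in 14.8%. Neither window held TGACGTCA or the AP-1 run TGACTCA. Both strands were searched, the marked runs do not overlap one another, and the letters were chosen after the sequences and the data had been seen. A match is a description of the letters and does not show that a factor binds.

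The genes were expressed in all 9 libraries, and 3 of them lay near the middle of the range of tested genes. Per unit length, Fos averaged 14.5 FPKM over the 9 libraries (fragments scaled to length and library size, as deposited), Egr1 11.9, Jun 11.0 and Nr4a1 1.04. Of the tested genes, 55.2% had a lower mean FPKM than Fos, 49.3% a lower one than Egr1, 47.0% a lower one than Jun and 8.48% a lower one than Nr4a1. Which of the first 3 overlapped differed between treated cells and the other groups. In treated cells Fos, at 14.1 ± 0.785 FPKM, and Egr1, at 13.8 ± 0.385 FPKM, had overlapping libraries, and Jun lay below both at 10.9 ± 0.762 FPKM (SD, n = 3). In Model cells Fos stood above the others at 14.2 ± 1.70 FPKM, while Egr1 at 11.1 ± 0.594 FPKM and Jun at 11.0 ± 0.804 FPKM overlapped. Normal cells had the same arrangement, with Fos at 15.1 ± 2.93, Jun at 11.1 ± 0.543 and Egr1 at 10.8 ± 0.993 FPKM. Nr4a1 was below the other 3 genes in each library, with 0.709 to 1.33 FPKM.

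These levels rest on 1 length per gene, recovered from the deposited counts and FPKM as 1589 bases for Fos, 3089 for Jun, 3130 for Egr1 and 3180 for Nr4a1. Jun, a gene without introns, spans 3094 bases in RefSeq, close to the length recovered for its identifier. The RefSeq spans of the others exceed their recovered lengths, at 2867 bases for Fos, 3800 for Egr1 and 20892 for Nr4a1. A span takes in any introns, so those recovered lengths were not checked. The height of Fos relative to the others depends on its shorter length: in counts per 1e6 counts of the library (CPM) it was below Jun and Egr1 in each library.

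**Figure D1:**
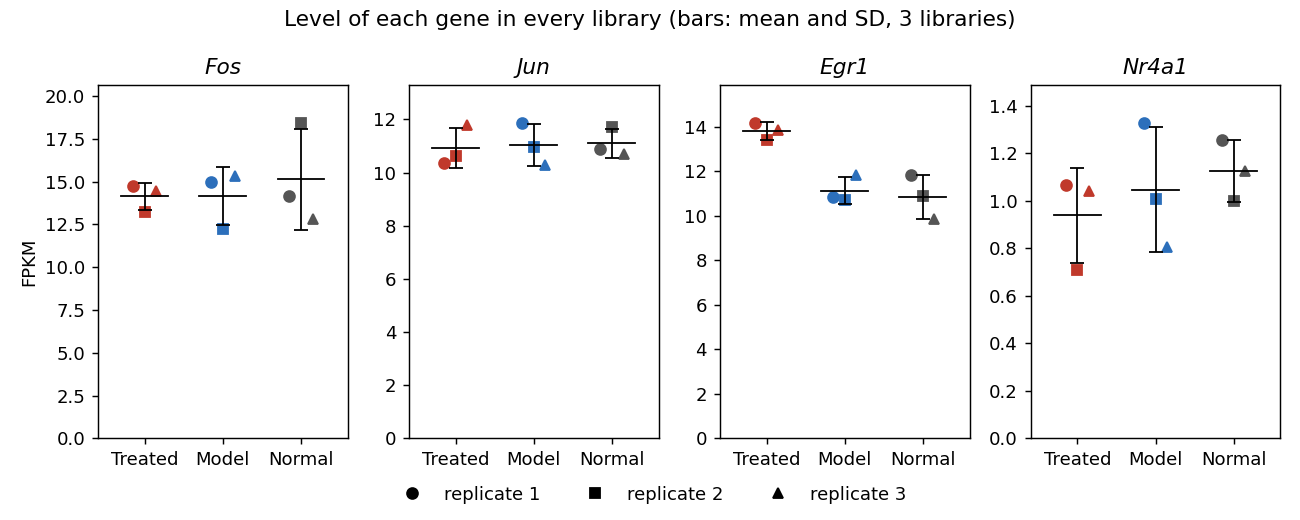
Deposited FPKM of Fos, Jun, Egr1 and Nr4a1 in the 3 treated, 3 Model and 3 Normal libraries, with the mean and SD of each group; each panel has its own vertical axis, starting at 0. For Egr1 the 3 treated libraries sit at 13.4 to 14.2 FPKM, above the Model and Normal libraries at 9.84 to 11.8, while the groups of the other 3 genes overlap.

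Fos encodes the partner of Jun in AP-1 and is the textbook immediate early gene. It had 23.4, 20.9 and 22.8 CPM in treated libraries 1 to 3, against 23.8, 19.5 and 24.6 CPM in Model libraries 1 to 3 and 22.6, 29.3 and 20.4 CPM in Normal libraries 1 to 3. The groups overlapped, and the highest library, Normal 2, exceeded the lowest, Model 2, 1.50-fold. Treated cells averaged 22.4 ± 1.32 CPM, Model cells 22.6 ± 2.74 CPM and Normal cells 24.1 ± 4.65 CPM (SD, n = 3).

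Jun, the other component of AP-1, was the steadiest of the 4. It had 32.0, 32.5 and 36.2 CPM in treated libraries 1 to 3, against 36.7, 34.0 and 32.0 CPM in Model libraries and 33.8, 36.3 and 33.2 CPM in Normal libraries. Its highest library exceeded its lowest by only 1.15-fold, and both were Model libraries. The means were 33.6 ± 2.29 CPM in treated cells, 34.3 ± 2.37 CPM in Model cells and 34.4 ± 1.65 CPM in Normal cells.

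Egr1 had 44.4, 41.6 and 43.1 CPM in treated libraries 1 to 3, against 34.0, 33.7 and 37.3 CPM in Model libraries and 37.2, 34.1 and 30.9 CPM in Normal libraries. All 3 treated libraries were above all 6 others, the deepest library (treated 1) and the 2 shallowest (treated 2 and 3) alike. The means were 43.0 ± 1.38 CPM in treated cells, 35.0 ± 1.99 CPM in Model cells and 34.0 ± 3.14 CPM in Normal cells. In bulk RNA, more cells with Egr1 mRNA and more of it per cell cannot be told apart. Among the 12943 tested genes, 4.87% had every treated library above every other library.

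Nr4a1 was the least abundant, with 62, 18 and 27 counts in treated libraries, 56, 51 and 44 in Model libraries and 54, 43 and 44 in Normal libraries. Scaled to depth this is 3.40, 2.24 and 3.29 CPM in treated libraries 1 to 3, against 4.23, 3.22 and 2.58 CPM in Model and 4.01, 3.18 and 3.59 CPM in Normal libraries. The groups overlapped, and the highest library, Model 1, was 1.89-fold above the lowest, treated 2. With 3 counts worth 0.164 to 0.376 CPM in these libraries, Nr4a1 was well above that floor in all of them. The means were 2.98 ± 0.642 CPM in treated cells, 3.35 ± 0.831 CPM in Model cells and 3.60 ± 0.418 CPM in Normal cells.

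The treated cells were set against Model cells to see what the compounds changed, on the premise that both had been given the Model condition. Egr1 was 1.23-fold higher in treated than in Model cells, with groups that did not overlap, but it did not pass the threshold. Its log2 fold change was 0.30 ± 0.086 (SE), with a 95% interval, not adjusted for the number of genes, of 0.12 to 0.48, and the edgeR quasi-likelihood test gave a Benjamini-Hochberg adjusted p of 0.143 over all tested genes. Of the 12943 genes, 12.6% had an unadjusted p below 0.05, as Egr1 had, 0.919% were called at an adjusted p below 0.05, and 7.90% were higher in treated cells without overlap. Egr1 ranked 310 by p, and 11.6% of genes had a larger fold change in either direction.

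Fos, Jun and Nr4a1 did not pass the test between treated and Model cells, and their groups overlapped. The log2 fold change was -0.012 for Fos, with a 95% interval of -0.30 to 0.27 and an edgeR adjusted p of 0.982. For Jun it was -0.030, with an interval of -0.21 to 0.15 and an edgeR adjusted p of 0.912. For Nr4a1 it was -0.12, with an interval of -0.61 to 0.37 and an edgeR adjusted p of 0.858. The intervals leave room for 0.815 to 1.21 times the Model level for Fos and 0.862 to 1.11 times for Jun. For Nr4a1 they leave room for 0.655 to 1.29 times the Model level. The median log2 fold change of all tested genes was -0.00096.

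Egr1 was 1.27-fold higher in treated than in Normal cells, again without overlap. Its log2 fold change was 0.34 ± 0.086 (SE), with a 95% interval of 0.15 to 0.52 (edgeR adjusted p = 0.0526), just short of the threshold. In that comparison 2.67% of the genes were called, 18.5% had an unadjusted p below 0.05, as Egr1 had, and 11.9% were higher in treated cells without overlap. With DESeq2 the Egr1 log2 fold change was 0.34 with an adjusted p of 0.0353, and a stricter filter of 30 counts in edgeR gave 0.0460, so the call turned on the method. Without Model library 2 the edgeR adjusted p was 0.0432. Only these 3 of 17 refits passed, and the edgeR adjusted p reached 0.143 without treated library 3. The 3 fits called 553, 349 and 478 genes in this comparison, against 346 in the fit reported here. Both Egr1 differences share the same treated libraries and are not independent of each other.

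The other 3 genes did not pass between treated and Normal cells. Fos had a log2 fold change of -0.11 with a 95% interval of -0.39 to 0.18, and an edgeR adjusted p of 0.714. Jun had -0.040 with an interval of -0.23 to 0.15, and an edgeR adjusted p of 0.848. Nr4a1 had -0.24 with an interval of -0.73 to 0.25, and an edgeR adjusted p of 0.615. Without Normal library 2, the highest for Fos, the Fos value was 0.064, the opposite sign. For Nr4a1 the value was -0.38 when treated library 1 was left out, -0.099 when treated 2 was and -0.15 when Normal 1 was, and it was called in none of these fits.

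The Model cells were then set against Normal cells. None of the 4 differed detectably. Of the 12943 genes edgeR called 0%, with 550 genes at an unadjusted edgeR p below 0.05. About 647 would be expected below it if no gene differed. DESeq2, which started from the counts without the low-count filter, called no gene, with 409 at an unadjusted DESeq2 p below 0.05. The log2 fold change was -0.094 for Fos, with a 95% interval of -0.37 to 0.18. It was -0.0094 for Jun, with an interval of -0.19 to 0.17. Egr1 had 0.040, with an interval of -0.14 to 0.22, and Nr4a1 -0.12, with an interval of -0.59 to 0.35. All 4 intervals include 0, and the groups of every member overlapped. The edgeR adjusted p was 0.999 for Fos, Egr1 and Nr4a1 and 1.00 for Jun after rounding. As folds of the Normal level, the intervals ran from 0.773 to 1.14 for Fos and from 0.876 to 1.13 for Jun. For Egr1 they ran from 0.906 to 1.17 and for Nr4a1 from 0.666 to 1.27. The intervals are not adjusted for the number of genes and reflect differences among libraries that may be technical. They apply to the time at which the cells were harvested, which the labels do not give.

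**Figure D2:**
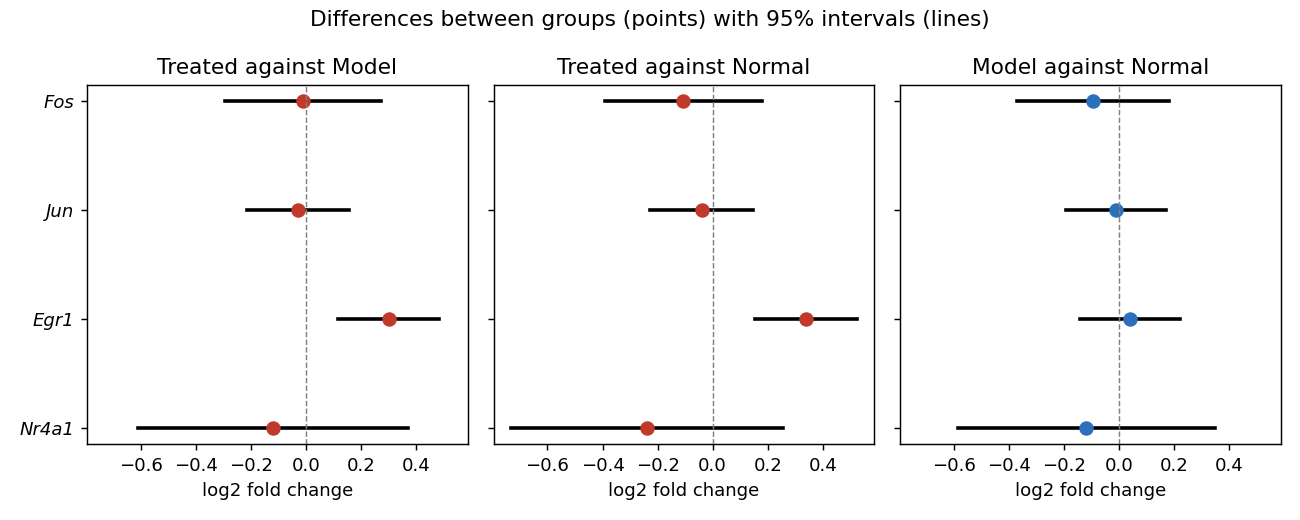
Log2 fold change of Fos, Jun, Egr1 and Nr4a1 in treated against Model, treated against Normal and Model against Normal cells, as points with 95% intervals from the edgeR fit. The Egr1 interval lies above 0 in both comparisons of treated cells, at 0.12 to 0.48 against Model and 0.15 to 0.52 against Normal, and the other 10 intervals include 0.

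A single test for any difference among the 3 groups gave an edgeR adjusted p of 0.0945 for Egr1, 0.869 for Fos, 0.959 for Jun and 0.827 for Nr4a1. For Egr1 the adjusted p was 0.0553 in DESeq2 and between 0.0794 and 0.284 in edgeR fits that left out 1 library, the highest without treated library 1. In that test 1.61% of all tested genes were called. Over the 12 member comparisons, edgeR called 0 and placed 2, both of Egr1, below an unadjusted p of 0.05. Of all tested genes, 12.6% were below it in treated against Model and 18.5% in treated against Normal cells. DESeq2 called 1 member comparison, Egr1 in treated against Normal cells, where it called 553 genes. In that comparison edgeR called 2.67% of the tested genes. DESeq2 started from another set of genes, so no share is given for its 553. DESeq2 gave no adjusted p for Nr4a1 in treated against Model cells.

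The ratio of 2 genes within a library does not depend on its depth, to which the FPKM are already scaled. Egr1 over Fos in FPKM was 1.24-fold higher in treated than in Model cells and 1.35-fold higher than in Normal cells. Egr1 over Jun was 1.25-fold and 1.30-fold higher in the same comparisons. In these 4 comparisons the libraries did not overlap, which in an exact two-sided permutation test of 3 against 3 libraries gives p = 0.1, the smallest p the design allows, or 0.36 adjusted over the 18 ratio comparisons made. Egr1 over Nr4a1 was 1.38-fold higher than in Model with overlapping libraries (exact permutation p = 0.3) and 1.55-fold higher than in Normal without overlap (exact permutation p = 0.1). Fos over Jun averaged 1.30 ± 0.107 in treated, 1.29 ± 0.192 in Model and 1.36 ± 0.194 in Normal cells, and overlapped throughout. All 5 comparisons without overlap have Egr1 as the numerator. They largely repeat the Egr1 difference in the same libraries and are not separate evidence for it. How often ratios of other genes would not overlap was not computed.

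The 4 genes did not share 1 profile over the libraries. Fos was highest in Normal 2, Jun and Nr4a1 in Model 1, and Egr1 in treated 1. The lowest library was Model 2 for Fos, Model 3 for Jun, Normal 3 for Egr1 and treated 2 for Nr4a1, a different library for each gene. The nearest pair was Fos and Jun, whose centred log2 CPM profiles differed by a root-mean-square distance of 0.15, yet 18.2% of tested genes were nearer to Fos than Jun was, and 46.7% were nearer to Jun than Fos was. The farthest pair was Egr1 and Nr4a1, at 0.36.

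**Figure D3:**
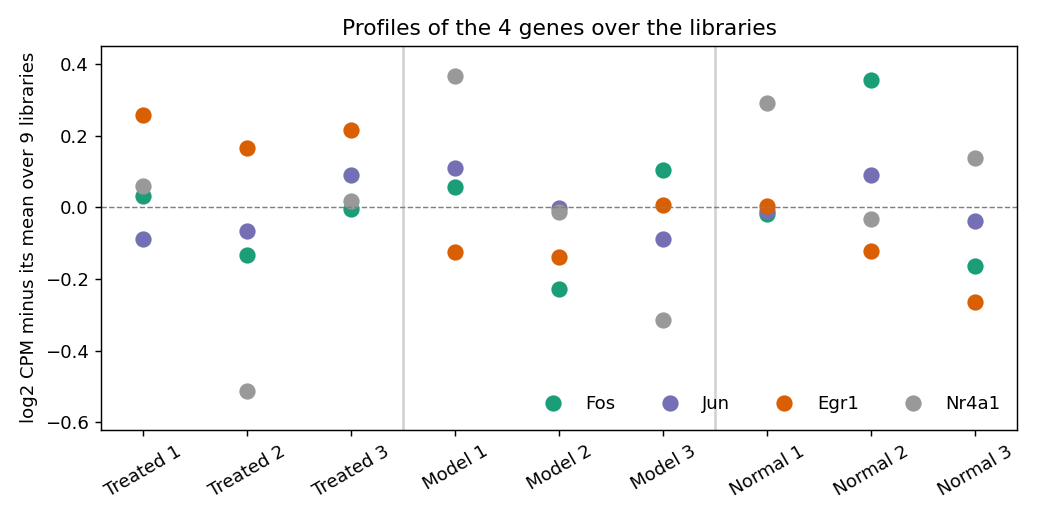
Log2 CPM of each gene minus its own mean over the 9 libraries, by library. Egr1 lies between 0.17 and 0.26 in the treated libraries and between -0.26 and 0.0077 in the others, and Nr4a1 has the widest range, from -0.51 in treated 2 to 0.37 in Model 1.

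Replicate spread set what could be seen for each gene. The SD of log2 CPM within groups was 0.19 for Fos, larger than in 88.1% of the 1000 tested genes nearest to it in level, whose median was 0.12. For Jun it was 0.089 and for Egr1 0.094, smaller than the medians of 0.11 among their neighbours in level. For Nr4a1 it was 0.29, against a median of 0.25. In treated cells the coefficient of variation of Egr1 was 3.20%, less than the 4.85% that counting error alone gives on average. Fos in Normal cells varied by 19.3%, against 5.72% from counting error, and Normal library 2 was the highest of the 3. For Nr4a1 counting error alone was 14.2% to 19.0% of the level, so its 18 to 62 counts are a limit on what can be resolved. It varied by 21.6% in treated, 24.9% in Model and 11.6% in Normal cells, against 19.0%, 14.2% and 14.7% from counting error.

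**Figure D4:**
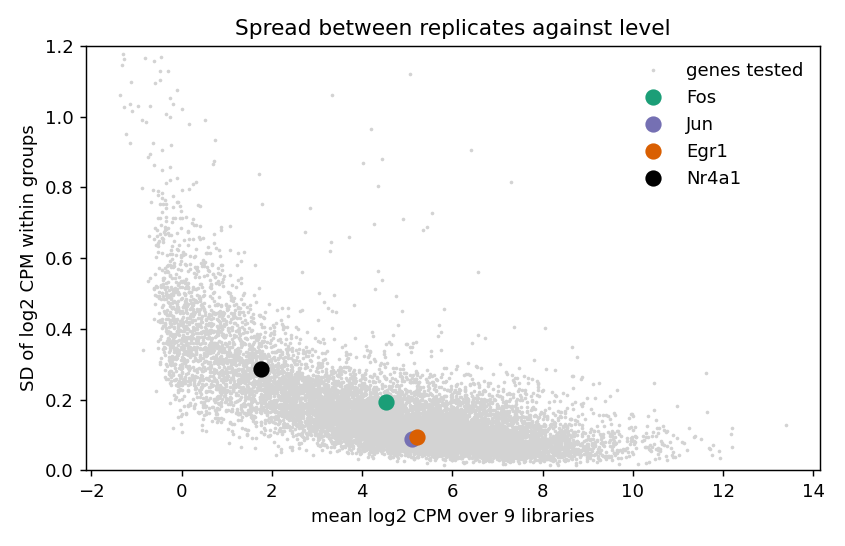
SD of log2 CPM within groups against mean log2 CPM for the genes tested, with the 4 immediate early genes marked; 57 genes with a larger SD lie outside the plot. Fos lies in the upper part of the cloud at its level with an SD of 0.19, while Jun and Egr1, at 0.089 and 0.094, lie in the lower part.

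The tested genes with profiles most like each member were found by the root-mean-square distance between centred log2 CPM values over the 9 libraries, which share depth and batch with the member itself. Nearest to Egr1 were ENSRNOG00000001979, at a distance of 0.050, and ENSRNOG00000015522, at 0.067, where the median tested gene was at 0.22. ENSRNOG00000001979 averaged 57.0 CPM in treated, 46.4 in Model and 43.1 in Normal cells. Nearest to Fos were ENSRNOG00000006931 and ENSRNOG00000046207, at 0.059 and 0.060, and nearest to Jun ENSRNOG00000027513 and ENSRNOG00000039234, at 0.038 and 0.041. Nearest to Nr4a1 were ENSRNOG00000025864 and ENSRNOG00000050105, at 0.10 and 0.11. None of the other members was among these, and the files pair no names with these identifiers.

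Each of the 9 libraries was left out in turn. The Egr1 log2 fold change then stayed between 0.27 and 0.35 against Model and between 0.27 and 0.41 against Normal. Every treated library was above every other library for Egr1, so leaving 1 out could not reverse the sign. No refit was called against Model, where the edgeR adjusted p reached 0.413 without Model library 1.

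**Figure D5:**
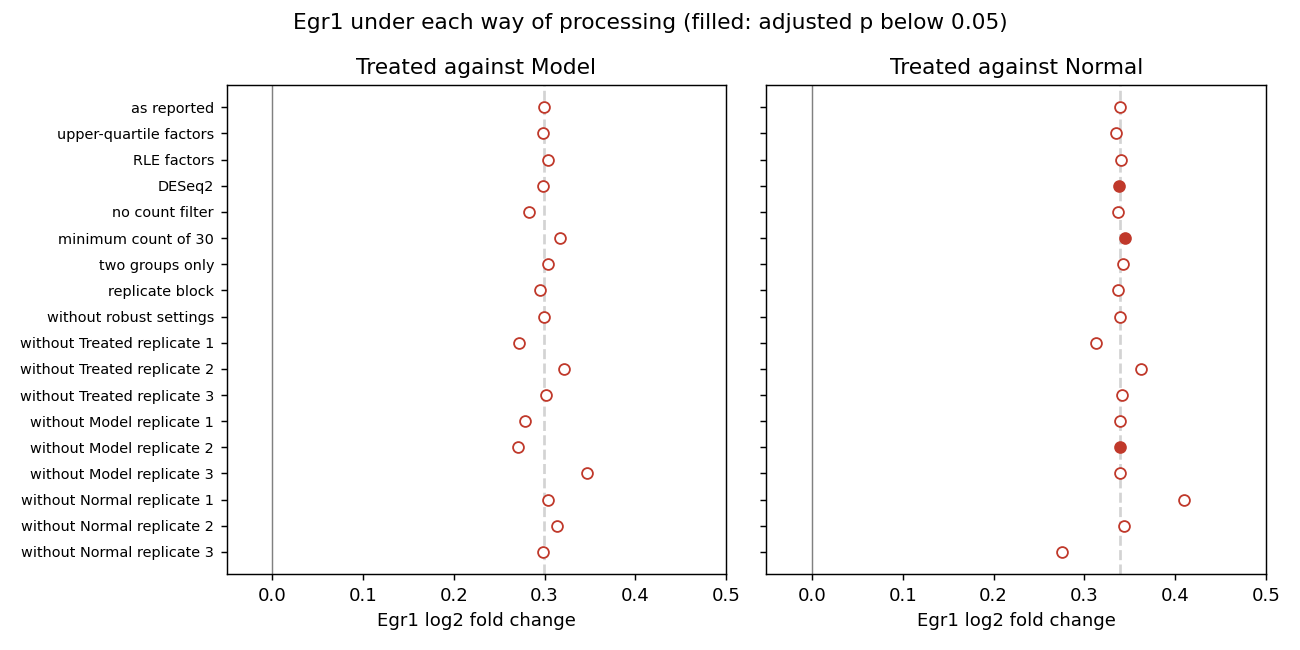
Log2 fold change of Egr1 in treated against Model and treated against Normal cells, as reported and under each other way of processing the counts; filled points have an adjusted p below 0.05. All points lie above 0, and 3 points, all against Normal, are filled.

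The other members of the AP-1, EGR and NR4A families, further immediate early genes, feedback phosphatases and upstream kinases had been listed by symbol. With markers of cell types these lists held 119 symbols in 12 lists. The reference gene table pairs 0 of its 47357 genes with an Ensembl identifier, so these genes were not analysed here.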

How the data were processed

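The authors deposited whole-number read counts and FPKM values per Ensembl gene for 9 libraries in 1 table, per the file headers. Libraries were made strand-specifically from total RNA, per the labels' protocols. The submitters' processing notes name CASAVA 1.8 and the build mRatBN7.2. No aligner, counter, strand setting or annotation release was given in those sources, so reads of genes that overlap or lie antisense to a member could be counted with it. Tests used the counts; the FPKM served for levels per length. A table of lncRNA transcripts was not used here.

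All 9 libraries entered 1 edgeR 4.0.16 fit in R 4.3.3 with group as the only term (TMM, filterByExpr at a minimum count of 10, robust dispersion and quasi-likelihood fits). The filter kept 99.9% of the counts. P-values were adjusted over 12943 genes and a gene was called below 0.05. CPM used TMM-scaled library sizes; log2 CPM used a prior count of 2. Standard errors are the log2 fold change divided by the square root of F. The fit was tested on simulated data. The 95% intervals use these standard errors and so include the spread between libraries; the floor of 3 counts covers counting error only. No replicate pair agreed within sampling noise (chi-square per degree of freedom 4.27 to 15.3).

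The text names the 4 members and, for each, the 2 tested genes nearest in profile; list genes could not be matched. Members and lists were chosen with earlier results of these data known. Alternatives were DESeq2 1.42.0, upper-quartile and RLE factors, no filter or a minimum count of 30, and fits on 2 groups. Further alternatives were a replicate block, no robust settings and leaving out each library. For the test among 3 groups the alternatives were added after the data were seen. DESeq2 took the counts without the low-count filter and applied its own filtering.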

Additional observations from a re-analysis of the deposited data

How the results depend on the processing

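The 2 Egr1 differences of treated cells kept their sign in all 34 refits. Refits that left out 1 library could not have reversed it, since no treated library overlapped the others. Between treated and Normal cells Egr1 passed the threshold in 3 of 17 refits. Its log2 fold change there was 0.34 in DESeq2, 0.34 with a minimum count of 30 and 0.34 without Model replicate 2. Leaving out single libraries gave Egr1 0.27 to 0.41 against Normal. Its adjusted p ranged from 0.0353 to 0.143 against Normal and from 0.0981 to 0.413 against Model. In the test among the 3 groups the adjusted p of Egr1 ranged from 0.0553 in DESeq2 to 0.284 without treated library 1, with 0.178 under the replicate block in edgeR. Values near 0 changed sign without a call: Jun in Model against Normal was 0.0042 with no count filter, and Fos in treated against Model 0.0062 with a minimum count of 30.

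Without single libraries the log2 fold changes ranged as follows. In treated against Model cells they were -0.11 to 0.054 for Fos, -0.082 to 0.021 for Jun and -0.28 to 0.071 for Nr4a1. In treated against Normal cells they were -0.21 to 0.064 for Fos, -0.093 to 0.0040 for Jun and -0.38 to -0.099 for Nr4a1. In Model against Normal cells they were -0.20 to 0.062 for Fos, -0.061 to 0.038 for Jun, -0.023 to 0.11 for Egr1 and -0.31 to 0.044 for Nr4a1. None of these was called.

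Genes called between treated and Model cells numbered 119, against 230 in DESeq2, 47 with the replicate block and 8 to 215 without single libraries. Between treated and Normal cells they numbered 346, against 553 in DESeq2 and 94 to 671. Between Model and Normal cells they numbered 0, against 1 with the block and 0 to 16. DESeq2 started from the counts without the low-count filter, so its numbers come from another set of genes. The correlations of same-numbered deviations were -0.010 to 0.28, not all above 0.1. Libraries 1 (0.28) and libraries 3 (0.12) of Model and Normal cells were each other's best match. With treated cells, only libraries 2 of treated and Model were (0.089). Whether the numbers mark shared cultures or days is not stated and was not tested. With the block Egr1 was 0.30 against Model and 0.34 against Normal, adjusted p 0.257 and 0.0947 in edgeR. The cause of these shifts was not tested. Nr4a1 had 18 counts in its smallest library, and its spread in Model cells exceeded counting error.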
